A study of Mus musculus with 4 samples.

Results

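Marrow cells from mice of the wild type or with a GM1082 knockout were cultured with M-CSF, the cytokine that drives marrow progenitors towards macrophages, for 5 days, and their total RNA was sequenced with 2 libraries per genotype. The antisense noncoding genes of these cultures are described here. Each is a row of the deposited table with a NONCODE identifier that lies on chromosomes 1 to 19, averages 1 FPKM or more over the 4 libraries, shares at least 1 base with an Ensembl gene on the opposite strand and shares none with an Ensembl gene on its own strand. FPKM is the number of fragments scaled to kilobases of counted length and to library size. By this rule 3242 of the 62046 rows of the table were taken, out of 8013 antisense rows at any level and 39268 noncoding rows on these chromosomes. The rows were thus chosen by their mean FPKM over all 4 libraries and by position, and the difference between genotypes was not used. Both genotypes received M-CSF, and the labels give no strain, age or sex. No label states that libraries of a genotype are from different animals, so the spread behind each p-value is that among these samples and may be technical.

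An antisense transcript is read from the strand opposite to another gene, so that its sequence is complementary to part of that gene's transcript wherever their exons meet. Some such pairs start close together and run apart from a shared promoter region, some converge at their 3′ ends, and many antisense transcripts lie wholly within a gene, often in an intron. Known antisense RNAs act on their neighbour in cis through transcription across it or through chromatin, and others host small RNAs or work elsewhere in the cell. Whether the libraries keep strand, and whether counting used it, is not given in the sources used. Reads from a gene and reads from the antisense row across it therefore cannot be told apart where they cover the same bases. If strand was not used, reads from the gene's unspliced RNA would also be counted in a row that lies in an intron. Each level below carries that limit.

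Promoter sequences show how closely some of these pairs start. Of the 3242 rows, 144 had their 5′ end within 1 kb of the 5′ end of the overlapped gene. The windows below run from 250 bases before to 50 bases after a RefSeq start on GRCm38.p6, the build on which the coordinates of the table are read, and are printed 5′ to 3′ on the strand of the named gene. Fbxl18, Glo1 and Ccl3 came from the rule for named rows. Znfx1, Zbtb37 and Jun, and the antisense RNAs Zfas1 and Gas5, were chosen after their values were seen, because each pair starts within 1 kb. Capitals mark a CCAAT box (CCAAT), a GC box (GGGCGG) or an ETS motif (CCGGAAGT), searched on both strands, and matches that share bases were each counted. The other motifs searched in the same way were the TATA box (TATAAA), a PU.1 motif (GAGGAAGT), an AP-1 motif (TGACTCA) and a cyclic AMP element (TGACGTCA), which none of these windows held.
Fbxl18 (gene, chr5:142895189-142895488, minus strand): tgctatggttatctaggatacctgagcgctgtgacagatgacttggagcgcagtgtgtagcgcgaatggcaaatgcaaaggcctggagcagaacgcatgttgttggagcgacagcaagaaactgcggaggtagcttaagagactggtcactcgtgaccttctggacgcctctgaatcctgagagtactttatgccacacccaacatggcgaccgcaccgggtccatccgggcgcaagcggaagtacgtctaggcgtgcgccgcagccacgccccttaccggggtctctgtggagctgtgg
Glo1 (gene, chr17:30612610-30612909, minus strand): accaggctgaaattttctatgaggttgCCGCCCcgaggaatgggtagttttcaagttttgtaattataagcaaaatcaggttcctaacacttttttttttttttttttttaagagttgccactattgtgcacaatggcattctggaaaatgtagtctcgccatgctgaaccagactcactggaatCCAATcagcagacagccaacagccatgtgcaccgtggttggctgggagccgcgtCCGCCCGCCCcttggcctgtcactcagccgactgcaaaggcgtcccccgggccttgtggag
Ccl3 (gene, chr11:83649329-83649628, minus strand): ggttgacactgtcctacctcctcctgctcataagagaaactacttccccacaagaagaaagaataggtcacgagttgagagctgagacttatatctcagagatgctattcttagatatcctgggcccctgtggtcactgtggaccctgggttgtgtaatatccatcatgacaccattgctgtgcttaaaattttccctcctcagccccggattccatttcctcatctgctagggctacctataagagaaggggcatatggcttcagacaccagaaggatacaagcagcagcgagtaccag
Znfx1 (gene, chr2:167062966-167063265, minus strand): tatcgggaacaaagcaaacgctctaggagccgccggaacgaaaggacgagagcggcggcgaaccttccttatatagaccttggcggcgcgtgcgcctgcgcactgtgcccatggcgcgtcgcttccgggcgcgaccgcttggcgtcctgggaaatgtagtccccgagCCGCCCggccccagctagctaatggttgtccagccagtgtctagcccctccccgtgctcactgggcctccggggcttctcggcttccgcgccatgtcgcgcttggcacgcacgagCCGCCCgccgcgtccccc
Zfas1 (antisense RNA, chr2:167062684-167062983, plus strand): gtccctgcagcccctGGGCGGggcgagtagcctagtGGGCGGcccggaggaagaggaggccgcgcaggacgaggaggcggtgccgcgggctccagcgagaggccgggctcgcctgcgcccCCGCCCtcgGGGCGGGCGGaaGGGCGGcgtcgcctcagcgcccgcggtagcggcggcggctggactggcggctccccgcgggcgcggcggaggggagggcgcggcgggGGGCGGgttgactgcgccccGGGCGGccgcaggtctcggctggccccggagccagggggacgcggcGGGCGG
Zbtb37 (gene, chr1:161034800-161035099, minus strand): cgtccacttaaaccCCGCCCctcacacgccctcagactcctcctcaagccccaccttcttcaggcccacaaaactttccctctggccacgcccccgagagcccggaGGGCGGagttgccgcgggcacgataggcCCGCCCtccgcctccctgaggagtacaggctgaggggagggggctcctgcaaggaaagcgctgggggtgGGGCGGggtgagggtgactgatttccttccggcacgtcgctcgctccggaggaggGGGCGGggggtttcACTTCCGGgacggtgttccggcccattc
Gas5 (antisense RNA, chr1:161034351-161034650, plus strand): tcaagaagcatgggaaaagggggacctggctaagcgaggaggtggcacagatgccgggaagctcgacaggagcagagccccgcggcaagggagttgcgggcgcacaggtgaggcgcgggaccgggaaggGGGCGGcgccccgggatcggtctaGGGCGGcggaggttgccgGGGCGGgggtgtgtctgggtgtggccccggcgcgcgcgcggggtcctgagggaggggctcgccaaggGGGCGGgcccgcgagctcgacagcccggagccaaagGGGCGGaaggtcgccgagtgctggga
Jun (gene, chr4:95052173-95052472, minus strand): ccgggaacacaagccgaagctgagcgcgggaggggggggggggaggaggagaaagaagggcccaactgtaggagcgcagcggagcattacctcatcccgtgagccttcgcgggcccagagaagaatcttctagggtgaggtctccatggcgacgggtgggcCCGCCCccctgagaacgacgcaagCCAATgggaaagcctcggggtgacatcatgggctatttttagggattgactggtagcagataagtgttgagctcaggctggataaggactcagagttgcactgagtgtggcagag

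The windows of the pair Zfas1 and Znfx1 share 18 bases, since the antisense RNA starts 81 bases downstream of the RefSeq start of Znfx1 on the other strand. Zfas1 held 9 GC boxes in its window and Znfx1 held 2. The Zbtb37 window held 5 GC boxes and 1 ETS motif, and the antisense row across its first part starts 427 bases downstream of its RefSeq start. Glo1 held 1 CCAAT box and 3 GC boxes, and Jun held 1 of each. Fbxl18 and Ccl3 held none of the motifs searched. Of all 32851 promoter windows in the RefSeq table outside chromosome 18, 35.7% held a GC box, 37.4% a CCAAT box, 3.89% an ETS motif, 13.6% a TATA box, 3.2% the PU.1 motif, 5.2% the AP-1 motif and 1.79% the cyclic AMP element. Windows were found for 110 of the 143 genes with an antisense 5′ end within 1 kb, and 69.9% of their 143 windows held a GC box, with a median of 22 CpG dinucleotides against 7 in all windows. For the 1836 overlapped genes with a window, out of 2300, these values were 63% and 22, and these include the close pairs. A match of letters is a description of the sequence and not a site of binding.

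In arrangement, 2604 of the 3242 antisense rows (80.3%) lay wholly inside the overlapped gene. The 3′ ends of row and gene overlapped in 325 pairs (10%), the 5′ ends in 268 (8.27%), and in 45 pairs the gene lay inside the row. Inside genes, the midpoints of the rows were spread over the whole gene, with 413, 524, 563, 561 and 543 in 5 equal parts of the gene counted from its 5′ end. The rows lay across 2300 genes, of which 1692 held 1 row and 608 held several, so that 1550 rows shared their gene with another row and are not independent of it. RefSeq lists a protein-coding gene for 3176 of the overlapped rows. On the rows' own strand, RefSeq has a gene in the span of 674 rows, and in 59 of these it is a protein-coding gene that the Ensembl rows of the table do not place there. A RefSeq gene of any type on the row's own strand and of the same position (at least 90% overlap both ways) was found for 169 rows.

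The FPKM values hold the number of fragments behind them. A level of 1 FPKM in a counted length of 1 kb was worth 19.1 fragments in each wild-type library, 17.7 in the first knockout replicate and 18.1 in the second. For all 3242 antisense rows there was a counted length no longer than the span at which all 4 values stood for whole fragments within 0.02, while 298 rows (9.19%) had such a length when the library factors were exchanged. Fragments below are those at the whole span where it fits, and otherwise those at the shortest length that fits. In the second case they are the fewest that fit, and the true number can be larger. By these numbers the median was 186 fragments over the 4 libraries together, and 208 rows stood at fewer than 40. A row near 1 FPKM may thus stand for a few fragments per library. Lengths up to 20000 bp were tried, so the span of a longer row could not be found as its counted length. Within that limit the whole span could be the counted length in 740 rows (22.8%). In the other 2502 rows the counted length was shorter than the span, or the span was too long to be tried. The median span of the antisense rows was 2900.5 bp. Among rows spanning 1 to 3 kb, the span could be the counted length in 32.2% of antisense rows (332 of 1032), in 69.6% of noncoding rows within 5 kb of a gene, in 77.5% of those over 5 kb away and in 90.3% of noncoding rows on the gene's own strand. The length counted in antisense rows was therefore shorter than the span more often than in the other noncoding rows, as a description of the table with no test.

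**Figure D1:**
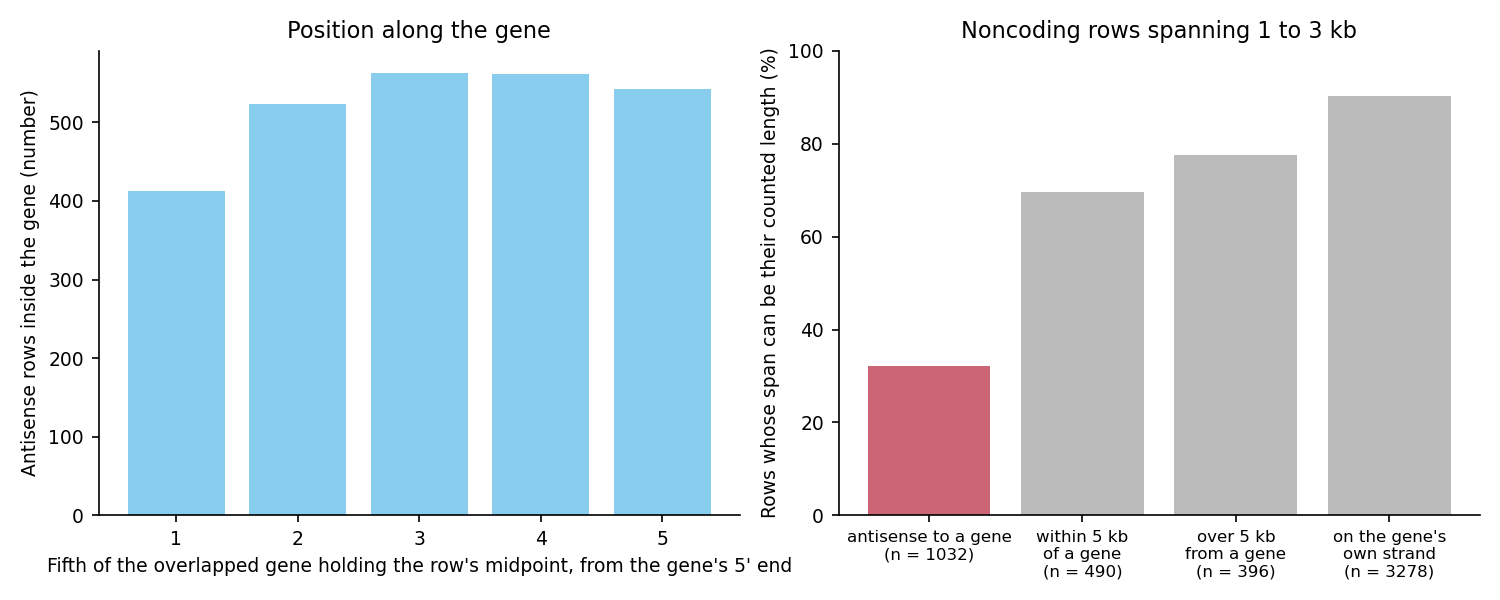
The left bars give the number of antisense rows inside a gene by the part of the gene, of 5 equal parts, that holds the row's midpoint, counted from the gene's 5′ end, and the right bars the percent of noncoding rows spanning 1 to 3 kb whose span can be their counted length. Numbers run from 413 in the first part to 563 in the middle one, and the antisense rows stand at 32.2% against 69.6% to 90.3% in the other noncoding rows.

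The antisense rows reached a median of 2.76 FPKM, with 1114 under 2 FPKM, 318 at 10 FPKM or more and a highest mean of 173 FPKM. In all, 5 of the 3242 rows were listed at 0 in at least 1 library. The 2300 overlapped genes, each counted once, had a median of 9.46 FPKM, and the median ratio of antisense row to gene over the pairs was 0.346. The row was above its gene in 496 pairs (15.3%), and in 168 pairs the gene was under 1 FPKM. Rows inside a gene had a median of 3.09 FPKM, rows meeting the gene at the 3′ ends 2.1 FPKM, and rows meeting it at the 5′ ends 1.82 FPKM, at 0.371, 0.252 and 0.175 of the gene's level. Across 3074 pairs with both means at 1 FPKM or more, log2 levels of row and gene correlated with Pearson's r of 0.43 and Spearman's rho of 0.42. These pairs share their libraries, and pairs with several rows share a gene, so no p-value is given. Where the gene was at 30 FPKM or more (426 pairs) the median row stood at 6.1 FPKM, against 2.07 FPKM where the gene was under 10 FPKM (1695 pairs).

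**Figure D2:**
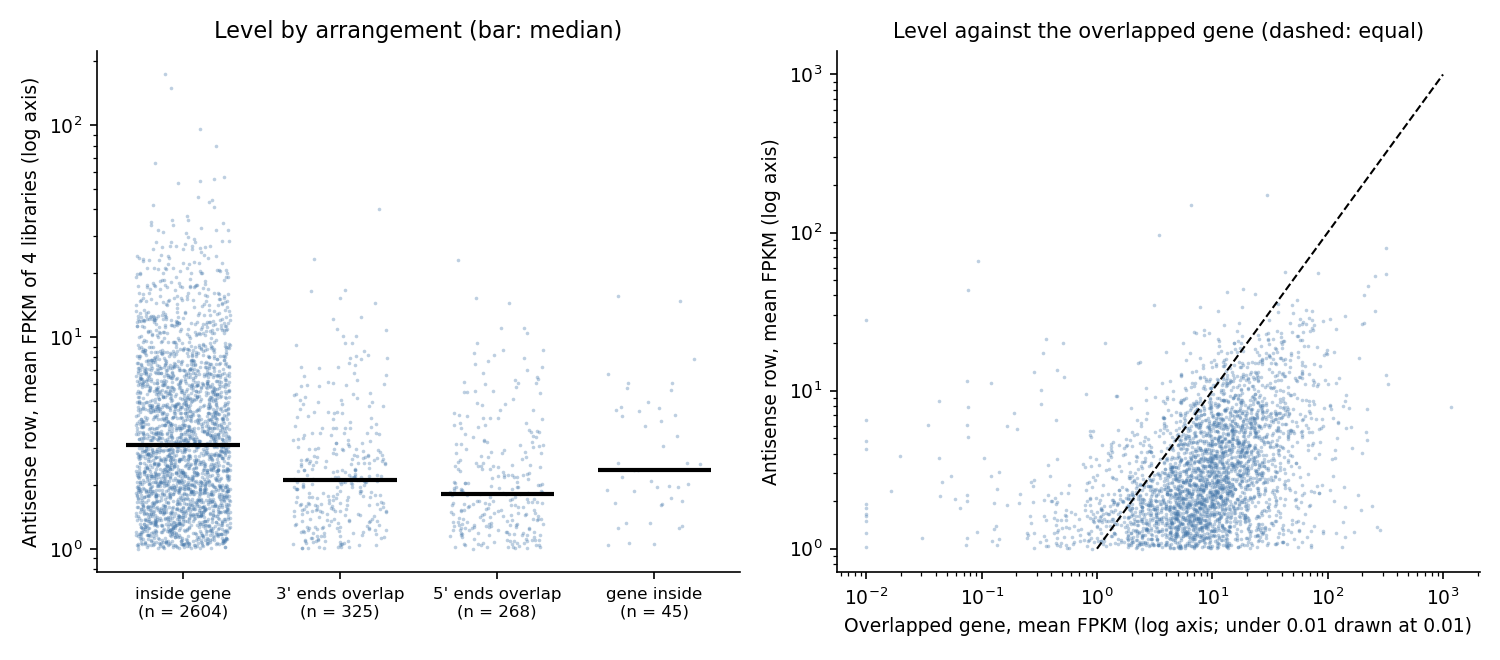
The left panel gives the mean FPKM over 4 libraries of each of the 3242 antisense rows on a log axis by arrangement, with bars at the medians of 3.09, 2.1, 1.82 and 2.35 FPKM, and the right panel sets each row's level against that of its gene on log axes. Most points lie under the dashed line of equal levels, and 496 rows lie above it.

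The most abundant antisense row lay inside Zc3h7a, which encodes a CCCH zinc finger protein. NONMMUG015781.2 (chr16:11143906-11144315, plus strand) was at 88.1 and 54.8 FPKM (wild type, replicate 1 then 2) against 425 and 125 FPKM (knockout, in the same order), which stand for 689, 429, 3090 and 932 fragments. The knockout libraries were both above the wild-type libraries, and replicate 1 was far above replicate 2. Here and below, 4 values in a row are wild-type replicates 1 and 2 and then knockout replicates 1 and 2. Zc3h7a itself was at 31.7, 28.7, 27.9 and 30.7 FPKM, with no such spread. The log2 difference of the row was 1.72 (SE 0.55, limma adjusted p = 0.826). Its ratio to the gene differed by 1.76 on the log2 scale (SE 0.51, limma adjusted p = 0.971 over 3074 pairs). When only the 824 pairs at 5 FPKM or more were fitted, the limma adjusted p was 4.24e-06. Both fits hold the same 4 ratios and the same difference. They differ only in the pairs that set the shared variance and the adjustment. The smaller p therefore adds no evidence beyond these values, in which knockout replicate 1 stood far above replicate 2.

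NONMMUG030947.2 (chr4:134159795-134164632, plus strand), inside the centrosomal protein gene Cep85, was at 164 and 170 FPKM (wild type) against 139 and 125 FPKM (knockout), with 3089 to 4405 fragments per library. The knockout libraries lay below the wild-type libraries, with a log2 difference of -0.34 (SE 0.11, limma adjusted p = 0.841). Cep85 stood at 6.39, 6.76, 6.6 and 6.44 FPKM, far under the row that crosses it. The row inside D5Ertd579e, NONMMUG032247.2, was at 111 and 88.6 FPKM (wild type) against 79.8 and 105 FPKM (knockout), again above its gene at 3.09 to 3.67 FPKM. AU020206 stood at 0.0329 to 0.164 FPKM, and NONMMUG038403.2 across it was at 66.2, 68.8, 61.2 and 67.8 FPKM with 4215 to 5100 fragments per library. In these 3 pairs the antisense row stood far above the gene that holds it.

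At Pkm and Ccl3 the antisense rows stood below the gene. Pkm, the pyruvate kinase gene of glycolysis, was at 298 to 342 FPKM and held NONMMUG042969.2 at 86.7, 73.2, 82.4 and 76.4 FPKM and NONMMUG084779.1 at 55.2, 53.6, 54 and 55.8 FPKM. Genotypes overlapped in both rows. Ccl3, a chemokine gene of activated macrophages, was at 98.8 and 69.2 FPKM (wild type) against 88.7 and 75 FPKM (knockout). NONMMUG052344.1 inside it was at 57.8, 51.4, 57.9 and 56 FPKM, and NONMMUG052345.1, whose 5′ end lies 144 bases from that of the gene in the table, was at 11.3, 9.03, 12.4 and 11.2 FPKM. Inside Coro2a, of the coronin family of actin-binding proteins, NONMMUG093106.1 was at 53.5 and 59.9 FPKM (wild type) against 56.4 and 56.7 FPKM (knockout), above the gene at 40.6 to 45 FPKM.

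The highest rows of each arrangement other than the rows inside genes were these. NONMMUG007009.2 meets Slfn2, a Schlafen gene induced by interferon, at the 3′ end and was at 44.2, 39.1, 37.7 and 39.4 FPKM, against 196 to 225 FPKM for the gene. NONMMUG061370.1 overlaps the 5′ end of Bcl6, a transcriptional repressor, and was at 29.3, 18.9, 20.4 and 23.6 FPKM, above the gene at 9.01 to 9.99 FPKM. NONMMUG093879.1 starts 94 bases upstream of the RefSeq start of Fbxl18 shown above and was at 15.9, 13.4, 14.5 and 17.2 FPKM, also above its gene at 2.19 to 2.69 FPKM. The genotypes overlapped in each of these rows. Of the rows that hold the whole gene, NONMMUG079387.1 around the B cell receptor chain gene Cd79a was at 14.5, 18, 18 and 12.1 FPKM. NONMMUG009283.3 around Hif1a, the oxygen-regulated transcription factor, was at 17.1, 12.1, 14.9 and 14.8 FPKM, and here wild-type replicate 1 was the highest for the row and for the gene (91.3 FPKM against 66.2 to 76.5).

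The comparison between genotypes asks which antisense transcripts differ between the libraries labelled wild type and GM1082 knockout. Of the 3242 antisense rows, 0 passed the limma adjusted p of 0.05 over all 24535 rows at 1 FPKM or more, of which 3 (0.0122%) passed, and the smallest adjusted p of an antisense row was 0.445. At an unadjusted p under 0.05, 82 rows were higher in the knockout (2.53%, against 2.5% of all rows tested) and 174 were lower (5.37%, against 2.85% of all rows). Among the other noncoding rows the lower share was 5.86% over 5 kb from a gene, 4.02% within 5 kb and 2.59% on the gene's own strand. The excess of lower over higher antisense rows was smaller with any single library left out. It was smallest without wild-type replicate 2. The share of all rows is not given for these settings. Knockout libraries were both above the wild-type libraries in 417 rows (12.9%, against 13.2% of all rows) and both below them in 656 (20.2%, against 17.7%). The median log2 difference was -0.03 for antisense rows and -0.01 for all rows, and the antisense rows lay between -0.47 and 0.39 from their 5th to their 95th percentile. Single rows had a median SE of 0.17 on this scale, and with 2 libraries per genotype the smallest p that an exact permutation test (two-sided) allows is 0.333.

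Markers of the cultured cells were read in the same libraries. The macrophage genes Csf1r and Adgre1 were at 104 to 121 and 139 to 158 FPKM, and the neutrophil gene S100a8 at 7586 to 8738 FPKM. The 6 macrophage markers summed to 2361 and 2372 FPKM (wild type) against 1801 and 2031 FPKM (knockout), with 3 of 6 lower in both knockout libraries. That sum is carried by Lyz2, since the other 5 summed to 455 and 437 FPKM (wild type) against 428 and 445 FPKM (knockout), which overlap. The 5 neutrophil markers summed to 16076 and 15071 FPKM (wild type) against 19164 and 17263 FPKM (knockout), with 4 of 5 higher in both knockout libraries. B cell markers summed to 104 to 157 FPKM with overlapping genotypes, and T cell markers to 0.473 to 1.1 FPKM. The 2 mast cell and basophil markers summed to 7.86 and 11 FPKM (wild type) against 14.7 and 13.5 FPKM (knockout), with 2 of 2 higher in both knockout libraries. Of the 2 erythroid markers, 1 was lower in both. Among all rows tested, both knockout libraries were above the wild-type ones in 13.2% and below them in 17.7%. The part of these marker differences in the antisense rows was not tested. In bulk libraries fewer cells of a type and less RNA per cell cannot be told apart. The row at the RefSeq position of Arhgap33os, taken because its RefSeq synonym is Gm1082, was at 0.0792 and 0.0198 FPKM (wild type) against 0.0639 and 0.0624 FPKM (knockout), too low to check the genotype labels, and it is not among the antisense rows.

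Rows are named next by the smallest p, up to 6 in each direction, among rows whose genotypes do not overlap. The first lower row lay inside Fto, an RNA demethylase gene. NONMMUG082716.1 (chr8:91652948-91655439, minus strand) was at 3.6 and 4.72 FPKM (wild type) against 0.727 and 1.42 FPKM (knockout), or 16, 21, 3 and 6 fragments. Its libraries did not overlap between genotypes, with a log2 difference of -1.33 (SE 0.22, limma adjusted p = 0.445). Fto stood at 4.14, 4.45, 4.56 and 4.57 FPKM. NONMMUG055401.1 (chr12:100022574-100036899, minus strand), inside the potassium channel gene Kcnk13, was at 7.54 and 10.3 FPKM (wild type) against 3.9 and 4.2 FPKM (knockout) on 49 to 140 fragments. Kcnk13 itself was at 8.5 to 9.14 FPKM, with the genotypes overlapping, so the row and its gene did not stand in the same order. The row's log2 difference was -0.96 (SE 0.17, limma adjusted p = 0.469). The ratio to the gene differed by -1.01, with a limma adjusted p of 0.971 over all pairs and 0.0162 over the 824 pairs at 5 FPKM or more. Here too both fits hold the same ratios, so the smaller p adds no evidence beyond them.

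NONMMUG051463.1, which meets the lipid transfer gene Osbpl8 at the 3′ end (chr10:111267527-111298383, minus strand), was the best covered of the lower rows at 27.5 and 28.4 FPKM (wild type) against 19 and 18.6 FPKM (knockout). Replicates lay within 1 FPKM of each other and the genotypes were apart, with a log2 difference of -0.55 (SE 0.10, limma adjusted p = 0.537). NONMMUG063119.1 in Glo1, the glyoxalase gene that clears methylglyoxal, starts 975 bases into the gene from the promoter shown above. It was at 2.09 and 1.71 FPKM (wild type) against 0.613 and 0.399 FPKM (knockout), which are 11, 9, 3 and 2 fragments. Its fitted difference of -0.95 rests on these few fragments. NONMMUG003059.2 in Phactr2, of a family that binds actin and protein phosphatase, was at 2.39 FPKM in each wild-type library against 0.997 and 0.974 FPKM (knockout).

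By the fragments as defined above, the higher rows described here stood at 27 to 73 each over the 4 libraries, against 25 to 588 for the 6 lower rows. NONMMUG071180.1 (chr3:86384261-86405523, minus strand) in Lrba, a gene of vesicle traffic, was at 0.878 and 0.658 FPKM (wild type) against 2.36 and 2.31 FPKM (knockout), or 4, 3, 10 and 10 fragments. The log2 difference was 0.92 (SE 0.16, limma adjusted p = 0.459), while Lrba was at 6.84 to 7.97 FPKM. NONMMUG006916.2 in Nf1, which encodes the Ras inhibitor neurofibromin, was at 0.931 and 1.14 FPKM (wild type) against 2.34 and 2.5 FPKM (knockout) on 9 to 23 fragments, with Nf1 at 9.14 to 11 FPKM. In both pairs the genotypes were apart for the row, as the rule for these rows requires. NONMMUG080080.1 in Fchsd2, a membrane remodelling gene, was at 2.53 FPKM in each wild-type library against 4.63 and 4.79 FPKM (knockout), and NONMMUG029144.2 in Tstd2 was at 1.96 FPKM in each wild-type library against 3.59 and 3.71 FPKM (knockout). Equal values in replicates here are equal numbers of fragments, given as 10 and 10 in both rows. For the row in Fchsd2 these are the fewest that fit. NONMMUG025152.2 in Nol4l, chosen after its values were seen, was at 0.558 and 2.6 FPKM (wild type) against 3.8 and 3.71 FPKM (knockout), with a limma adjusted p of 0.887 that became 0.0496 without wild-type replicate 2, when 1 wild-type library stood alone at 3 fragments.

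**Figure D3:**
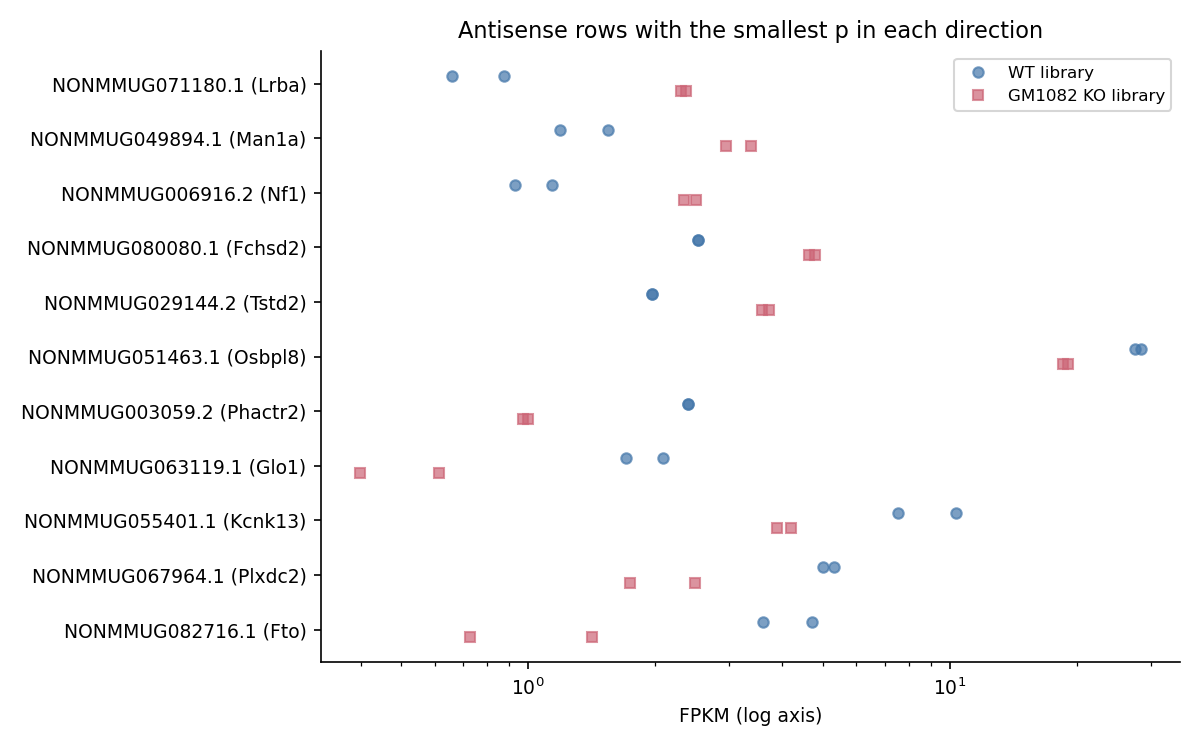
Antisense rows taken by the smallest p, 5 higher and 6 lower, are shown, each labelled with its overlapped gene, circles for the wild-type libraries and squares for the GM1082 knockout libraries, on a log axis of FPKM. The 2 genotypes are apart in each of the 11 rows because only such rows were taken. Values run from 0.399 FPKM in the lower knockout library of the row in Glo1 to 28.4 FPKM in wild type for the row at Osbpl8.

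The overlapped genes themselves gave 0 of 2164 tested past the limma adjusted p of 0.05, with 17 higher (0.786%) and 21 lower (0.97%) at an unadjusted p under 0.05, both under the 2.5% and 2.85% of all rows tested. The ratio of antisense row to gene, fitted as 1 value per library over 3074 pairs, gave 0 pairs past the adjusted p (0.0%), with 54 higher (1.76%) and 90 lower (2.93%) at an unadjusted p under 0.05. By the ratio, the first 3 higher pairs were Nf1, Lrba and Mecr, a gene of mitochondrial fatty acid synthesis. NONMMUG073620.1 in Mecr was at 0.904 and 1.26 FPKM (wild type) against 2.14 and 3.23 FPKM (knockout), against 2.65 to 3.31 FPKM for the gene. The first 3 lower pairs were Fto, Nsun4 and Mcm3ap. NONMMUG072418.1, which meets the mitochondrial ribosomal RNA methylase gene Nsun4 at its 3′ end, was at 3.87 FPKM in each wild-type library against 1.91 and 2.03 FPKM (knockout), while Nsun4 was at 2.78 and 2.8 FPKM and at 3.63 and 3.35 FPKM, in the opposite order. The log2 difference of this ratio was -0.96 (SE 0.20, limma adjusted p = 0.971). NONMMUG051167.1 in Mcm3ap, a gene of messenger RNA export, was at 1.89 and 1.47 FPKM in wild type, 0.677 FPKM in knockout replicate 1 and listed at 0 in knockout replicate 2.

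Row and gene leaned the same way more often than opposite ways. The log2 differences had the same sign in 1768 of 3074 pairs (57.5%) and correlated with r of 0.26 and rho of 0.24 across pairs. The same correlation was 0.26 for wild-type replicate 2 minus replicate 1 and 0.23 for knockout replicate 2 minus replicate 1, close to that between genotypes. Pairs with at least the median number of fragments gave 0.36 and the others 0.22, and noncoding rows on the gene's own strand gave 0.31 over 5881 pairs. All of these are across pairs that share the 4 libraries, and are given without a p. In 19 of the 3074 pairs both partners had an unadjusted p under 0.05, with 8 pairs higher in both and 11 lower in both. No such count was made for other kinds of pairs. Of these 19 pairs, 0 had opposite signs. Row and gene may share reads, and the part of this in the equal signs was not tested.

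**Figure D4:**
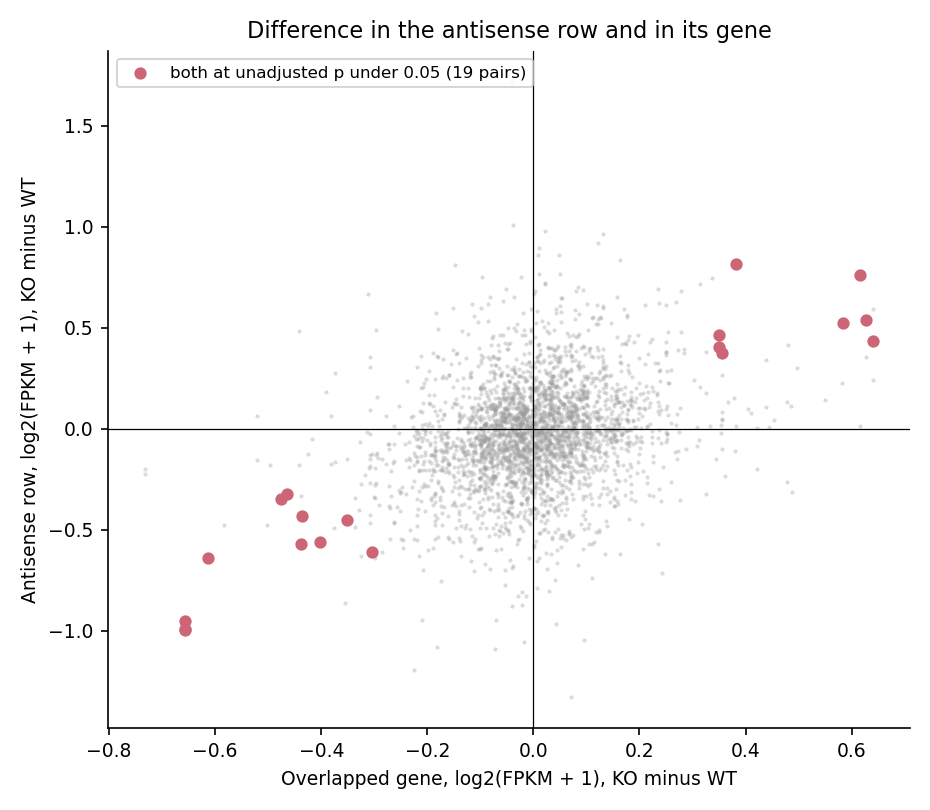
Each grey point is 1 of 3074 pairs, with the log2 difference of the gene (knockout minus wild type) across and that of its antisense row upwards. The 19 pairs with an unadjusted p under 0.05 in both partners are red and lie in the 2 quadrants of equal sign, 8 above and 11 below 0.

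Plxdc2, which encodes a membrane protein with a plexin domain, gave 3 of the 11 lower pairs. The gene was at 21 and 19.1 FPKM (wild type) against 10.6 and 14.3 FPKM (knockout), with a log2 difference of -0.66 (SE 0.16, limma adjusted p = 0.661). NONMMUG067963.1 (chr2:16365835-16372044, minus strand) was at 24.2 and 22.3 FPKM (wild type) against 8.89 and 14.9 FPKM (knockout), on 46 to 135 fragments. NONMMUG067964.1 (chr2:16502824-16538371) was at 5.31, 5.01, 1.75 and 2.48 FPKM, and NONMMUG067965.1 (chr2:16569968-16570893) at 17.1, 11.5, 5.64 and 7.63 FPKM. Genotypes did not overlap in the gene or in any of the 3 rows, and knockout replicate 1 was the lowest in all 4. The log2 differences of the 3 rows were -0.95, -0.99 and -0.99, with limma adjusted p-values of 0.642, 0.448 and 0.563. None passed the threshold, and the 3 rows share 1 gene.

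**Figure D5:**
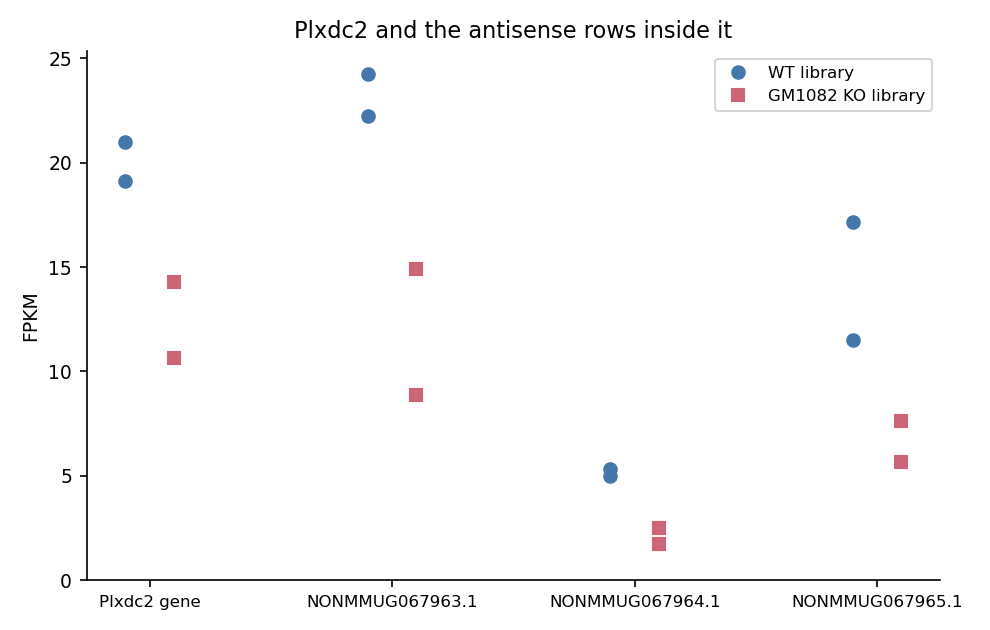
FPKM of Plxdc2 and of the 3 antisense rows inside it, circles for wild-type and squares for GM1082 knockout libraries. All 4 are lower in both knockout libraries, with the gene at 10.6 and 14.3 FPKM against 21 and 19.1 FPKM.

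The other 8 lower pairs lay at as many genes. NONMMUG077595.1 in Gpnmb, a glycoprotein gene of lysosomes, was at 9.23, 6.56, 4.73 and 4.77 FPKM, with the gene at 134, 137, 103 and 116 FPKM. NONMMUG083596.1 in the aquaglyceroporin gene Aqp9 was at 16, 14.7, 12.1 and 9.86 FPKM, with the gene at 45.2, 39.4, 33.4 and 32.4 FPKM. In both pairs the knockout libraries were the lower ones. NONMMUG057526.1 in Slc38a9, a lysosomal amino acid transporter gene, was at 7.81, 6.78, 3.76 and 5.62 FPKM, NONMMUG040424.2 at the 5′ end of the cationic amino acid transporter gene Slc7a2 was at 5.56, 3.16, 2.11 and 2.62 FPKM, and NONMMUG071922.1 in Atp6v0d2, a proton pump subunit, was at 3.5, 2.85, 1.79 and 2.42 FPKM. NONMMUG073850.1 in the retinaldehyde reductase gene Dhrs3 was at 8.79, 8.25, 5.08 and 5.75 FPKM, and RefSeq places Vps13d on its strand. The last were at Sirpb1c and Dpep3, and none of the 11 pairs passed the limma adjusted p.

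Among the 8 higher pairs, NONMMUG049894.1 in the Golgi mannosidase gene Man1a was at 1.19, 1.55, 2.95 and 3.38 FPKM, with Man1a at 11.3, 12.7, 16.2 and 15.6 FPKM. The log2 differences were 0.82 (SE 0.16, limma adjusted p = 0.537) and 0.38 (SE 0.12, limma adjusted p = 0.817), and the genotypes were apart for both row and gene. Fut8, which adds the core fucose of N-glycans, held 2 of the pairs, NONMMUG009347.2 at 1.61, 2.2, 2.88 and 3.08 FPKM and NONMMUG009342.2 at 0.847, 0.887, 1.56 and 1.38 FPKM, and was itself at 7.07, 7.59, 9.31 and 9.93 FPKM. Others were at Sipa1l1, Fgfr1, Fer and Muc13, with rows between 0.891 and 5.51 FPKM.

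Lists of genes by function place the antisense rows among known genes of these cells, and 0 rows of any list passed the limma adjusted p. Counts of higher and lower rows in each list are at an unadjusted p under 0.05, which took 2.5% and 2.85% of all rows tested and 2.53% and 5.37% of antisense rows. In lists of 1 to 50 rows, a single row is a large share, and nothing is read from it. Of 70 myeloid and lymphoid transcription factor genes, 30 had an antisense row, 50 rows in all with a median of 5.42 FPKM, and 3 of these were higher (6%) and 4 lower (8%). NONMMUG083281.1 in Fli1, an ETS factor of blood cells, was at 26.5 FPKM in each wild-type library against 23.6 and 30.6 FPKM (knockout). NONMMUG030985.2 in Runx3 was at 22.1, 20.1, 28.9 and 24.9 FPKM, the knockout libraries above the wild-type ones, with Runx3 at 34.3 to 40 FPKM. Chromatin regulators had 44 rows at 27 of 72 genes, 1 higher (2.27%) and 3 lower (6.82%), led by NONMMUG031924.2 in the methyltransferase family gene Kmt2e at 21.6, 23.7, 20.3 and 18.7 FPKM and NONMMUG068796.1 in the Polycomb gene Asxl1 at 13.7 to 14.6 FPKM. RNA processing genes had 25 rows at 19 of 56 genes, 1 higher (4%) and 2 lower (8%), with NONMMUG029413.2 in Ptbp3 at 21.9 to 26 FPKM and NONMMUG012929.2 in Hnrnpc at 11.4 to 15.3 FPKM. Over the 11 lists with more than 1 row, median log2 differences ran from -0.18 (granulocyte genes, 3 rows) to 0.08 (cell cycle genes, 14 of 20 rows positive), beside -0.03 for all antisense rows and -0.01 for all rows tested.

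Of 30 macrophage identity genes, 1 had an antisense row. That row, NONMMUG080667.1 (chr8:39626784-39699781, plus strand), overlaps the 5′ end of Msr1, the class A scavenger receptor gene. It was at 10.2 and 8.05 FPKM (wild type) against 5.21 and 7.25 FPKM (knockout), on 101 to 213 fragments, and Msr1 was at 57.7 and 45.1 FPKM and at 36.2 and 42.3 FPKM. Both row and gene were lower in both knockout libraries, with log2 differences of -0.49 (SE 0.19, limma adjusted p = 0.899) and -0.38 (SE 0.16, limma adjusted p = 0.939). The granulocyte genes had 3 rows at 3 of 35 genes and 0 past the unadjusted p, among them NONMMUG072639.1 in Padi4, which citrullinates histones, at 5.29 to 9.62 FPKM. Lymphoid genes had 10 rows at 3 of 32 genes, 0 higher and 1 lower. The lower one was NONMMUG053034.1 in Ebf1, a B cell factor, at 8.2 and 10.6 FPKM (wild type) against 7.01 and 6.59 FPKM (knockout).

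Innate sensing and interferon response genes had 18 rows at 10 of 52 genes, 0 higher and 1 lower, with NONMMUG094673.1 in the signalling kinase gene Irak2 at 9.4 to 12.5 FPKM and NONMMUG050442.1 in its inhibitory relative Irak3 at 8.1 to 10.5 FPKM. Chemokines, cytokines and their receptors had 9 rows at 8 of 54 genes, 0 higher and 2 lower, led after Ccl3 by NONMMUG042654.2 in the interleukin receptor gene Il10ra at 25.7 to 30.4 FPKM. Actin, adhesion and signalling genes had 31 rows at 17 of 61 genes with 0 past the unadjusted p in either direction, led by NONMMUG080045.1 in the adaptor gene Gab2 at 22.4 to 26.7 FPKM, above the gene at 15.2 to 18.2 FPKM, and by NONMMUG048532.1 in the lipid phosphatase gene Inpp5d at 15.1 to 16.8 FPKM. Lysosome and phagocytosis genes had 12 rows at 8 of 43 genes, 0 higher and 1 lower, with NONMMUG094333.1 in the late endosome gene Rab7 at 15.1 to 20.2 FPKM and NONMMUG060538.1 in Vps13b at 8.03 to 11.2 FPKM. Cell cycle genes had 20 rows at 13 of 54 genes, 1 higher and 0 lower, with NONMMUG017914.2 in the cell cycle inhibitor gene Cdkn1a at 14.4 to 20.9 FPKM and NONMMUG063947.1 in the cyclin gene Ccnd3 at 12.9 to 19.7 FPKM. A list of 42 genes with well described antisense transcripts, of which 33 are in the table, had 18 rows at 9 genes, 0 higher and 4 lower (22.2%), but 2 of these 4 lie at Gnas, and rows of 1 gene are not independent.

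Rows that match a RefSeq gene in position numbered 169, with a median of 2.45 FPKM. At an unadjusted p under 0.05 they held 2 higher (1.18%) and 8 lower rows (4.73%), against 2.53% and 5.37% of all antisense rows and 2.5% and 2.85% of all rows tested. The most abundant, NONMMUG024587.2 or Gm14010, was at 43.4, 42.2, 42.9 and 44.6 FPKM, while Gm14005 across from it averaged 0.0761 FPKM. NONMMUG021135.2, Gm36043 in RefSeq, lies at Cd274, which encodes the checkpoint ligand PD-L1, and was at 25.9, 18.8, 19.2 and 19.7 FPKM. NONMMUG036580.2, or 4930557K07Rik, at the zinc finger gene Zfp384 was at 18.9, 16.2, 12.5 and 10.1 FPKM, with both knockout libraries below the wild-type ones (log2 difference -0.60, limma adjusted p = 0.696). These 3, and the RNAs known by name that follow, were chosen after their values were seen. Gas5, a growth arrest RNA that hosts small nucleolar RNAs, is NONMMUG002215.2 on the strand opposite Zbtb37 and was at 8.55 and 10 FPKM (wild type) against 7.44 and 8.69 FPKM (knockout), above Zbtb37 at 2.26 to 2.95 FPKM. Zfas1, also a snoRNA host, is NONMMUG092251.1 opposite Znfx1 and was at 8.7, 8.82, 7.53 and 7.86 FPKM, under Znfx1 at 15.2 to 16.9 FPKM. Zfas1 was lower in both knockout libraries and Gas5 overlapped between genotypes. Junos, opposite the AP-1 gene Jun, is NONMMUG029868.3 and was at 7.63, 7.2, 7.94 and 6.97 FPKM, with Jun at 31.4 to 39.3 FPKM. They are among the pairs whose promoter windows are printed above. Their log2 differences were -0.18, -0.17 and 0.00, each with a limma adjusted p of 1.

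Some antisense rows carry small RNAs. RefSeq places a microRNA hairpin on the strand of 3 rows. NONMMUG002725.2 (chr1:185312187-185313803, plus strand), inside the mitochondrial isoleucyl tRNA synthetase gene Iars2, holds Mir194-1 and Mir215. The mature sequences are printed with the seed, bases 2 to 8, in capitals, and the seeds of the 2 main arms differ.
mmu-miR-194-5p (chr1:185313325-185313346, plus strand): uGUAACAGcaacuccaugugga
mmu-miR-215-5p (chr1:185313610-185313630, plus strand): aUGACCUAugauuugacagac

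That row was at 2.16 and 3.65 FPKM (wild type) against 0.873 and 1.99 FPKM (knockout), which are 16, 27, 6 and 14 fragments, and both knockout libraries were below both wild-type libraries. Iars2 was at 9.27 to 10.8 FPKM with overlapping genotypes. The log2 difference of the row was -0.70 (SE 0.29, limma adjusted p = 0.944). Mature microRNAs were not measured in these libraries.

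Several genes were crossed by many antisense rows. Bicra held 9, Wwox held 8, and Atxn7l1, Fgfr2, Arhgap24 and Lrmda held 7 each. The growth factor receptor gene Fgfr2 was listed at 0 in 3 libraries and at 0.00546 FPKM in knockout replicate 1, while its 7 rows had means of 1.26 to 6.49 FPKM. NONMMUG079213.1 there was at 5.06, 7.74, 7.05 and 6.1 FPKM and NONMMUG095075.1 at 5.69 and 6.66 FPKM (wild type) against 3.7 and 3.05 FPKM (knockout). In Arhgap24, a Rac regulator gene at 5.72 ± 0.429 FPKM (wild type) against 4.91 ± 0.33 FPKM (knockout, SD, n = 2), 7 of 7 rows had a negative log2 difference, with a median of -0.32 and 2 at an unadjusted p under 0.05. Of these, NONMMUG075827.1 was at 13.9 and 15.9 FPKM (wild type) against 9.72 and 11.1 FPKM (knockout). Of all antisense rows, 56.2% were negative, and the share among all rows tested is not given. Of the 31 genes with 5 or more rows, 4 had negative differences in every row (Arhgap24, App, Gnas and Ppm1h, named after their values were seen), with 2, 1, 2 and 0 rows past the unadjusted p, and 0 had positive differences in every row. In the scaffold gene Iqgap2, 5 of 6 rows were positive, with 2 past the unadjusted p. At that p, 2.85% of all rows tested and 5.37% of antisense rows were lower, and 2.5% and 2.53% were higher. These genes were picked from many, so nothing is read from their counts. Rows of 1 gene share that gene and its reads, and are not replicates.

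Close to the threshold of 1 FPKM, the rows just inside and just outside differed by little. NONMMUG037119.2 at Eps8l1 was at 0.756, 1.13, 1.32 and 0.794 FPKM, NONMMUG093858.1 in Pcolce at 0.75, 1.29, 0.954 and 1 FPKM and NONMMUG010252.3 at Zmynd11 at 0.912, 1.28, 1.2 and 0.629 FPKM. Just outside, NONMMUG004450.2 at Tmcc3 was at 1.16, 0.994, 0.915 and 0.932 FPKM and NONMMUG084516.1 at Tmem218 at 1.1, 0.552, 0.99 and 1.35 FPKM. Rows at this level stood for 8 to 45 fragments per library inside the threshold.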

How the data were processed

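Total RNA libraries of M-CSF treated bone marrow cells of 2 genotypes, 2 libraries each, were used as 1 table of FPKM values deposited by the authors. Per the submitters' processing notes, Bowtie 0.12.2 and the build mm9 were named. The counting tool and strand handling remain not given in the sources used. Of 18848 rows matched to RefSeq GRCm38.p6 by Entrez number, 99.9% lay on the same chromosome and 87.3% started within 1 kb, so coordinates are read as GRCm38.

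The 24535 rows averaging 1 FPKM or more were put on the log2(FPKM + 1) scale and fitted in limma 3.58.1 (R 4.3.3, eBayes with trend, no replicate block), with Benjamini-Hochberg adjusted p-values over all of them read at 0.05. Differences are given as knockout minus wild type on that scale, and it understates the change of low rows. The gene of a pair is the opposite-strand Ensembl row with the largest overlap, and 187 rows overlapped several. The antisense rows, the 12 gene lists and the tests were chosen with earlier results of these data known. Named rows are the 8 with the highest means, up to 6 with the smallest p per direction among rows whose libraries do not overlap, the 2 highest per arrangement, up to 2 per list, 3 per direction by ratio to the gene and 3 on each side of 1 FPKM, and other rows are said to be chosen after their values were seen or belong to a group described as a whole. The fit was tested on simulated data with changes larger than the differences described here, so that test does not cover differences of this size. Sequences are from RefSeq, and none is from chromosome 18, which holds 86 of the rows. Fragments cover counting error only. A few of the rows and sequences taken by these rules are not reported here.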

Additional observations from a re-analysis of the deposited data

How the results depend on the processing

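Over 17 alternatives, of which leaving out rows on the strand of a RefSeq protein-coding gene was chosen after seeing the data, 0 antisense rows passed the limma adjusted p of 0.05, except for 1 row without wild-type replicate 2 (range over left-out libraries 0 to 1), and 0 overlapped genes passed where they were fitted (a fit of noncoding rows alone has none). The exception was NONMMUG025152.2 in Nol4l, with a log2 difference of 1.61. With a filter of 5 FPKM, fewer rows were fitted, and at an unadjusted p under 0.05 this left 12 higher and 72 lower antisense rows. With this filter 2 ratios passed, at Zc3h7a and Kcnk13, with the same differences as in the main fit. The share of all rows is not given for this filter, for left-out libraries or for the replicate block. Nothing is read from the counts of higher and lower rows at these settings. Leaving out single libraries gave 76 to 126 higher rows and 138 to 184 lower rows. The median log2 difference of the antisense rows (-0.03) was -0.0387 with a pseudocount of 0.1, -0.0427 with a filter of 5 FPKM, -0.0213 after median-of-ratios scaling and -0.0208 after quantile normalization, and -0.0399 to -0.0224 over left-out libraries. The cause was not tested. With the replicate number as a replicate block, 106 rows were higher and 203 lower and 0 passed, and same-numbered libraries deviated together with a correlation of 0.0509, too little to pair them. Of 500 values of the 31 named rows described by their difference, 0 turned sign. Many of these rows were chosen because their genotypes do not overlap. For such rows leaving out a library cannot turn the sign, so nothing is read from this. A single library left out leaves an arm of 1, assumed to vary like the other group.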
